A study of Mus musculus with 16 samples.

Results

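The 7 genes described here are markers used to recognise mouse monocytes: Lyz2, Ly6c2, Cd14, Fcgr1, Cx3cr1, Ms4a7 and Cd68. They were taken by name, from a list drawn up with earlier results of these data known, and all 7 were among the 23999 gene symbols of the count table. Their levels were read in 16 polyA RNA-seq libraries from mice with acute myeloid leukaemia driven by NPM1cA, a mutant nucleophosmin found in the cytoplasm. Per the labels, 9 libraries were whole bone marrow infiltrated by leukaemia, from 9 NPM1cA/SMC3+/- mice (737, 779, 782, 919, 949, 1103, 1267, 2721 and 3332). A further 6 libraries were myeloid sarcomas, solid tumours of leukaemic cells, from 4 NPM1cA/SMC3+/- animals (948 and 2721 with 2 tumours each, 1267, and a sample labelled 1268_1270, which may name 2 mice). The remaining library was a sarcoma of mouse 841, whose genotype was NPM1cA with wild-type SMC3. SMC3 is a subunit of the cohesin ring, and all groups carried NPM1cA, so no group was free of leukaemia. Tumours went from dissection straight into Trizol, while marrow was crushed from bone, filtered and freed of red cells, so tissue and handling cannot be told apart. Libraries of 1 mouse and tissue were summed, which left 4 SMC3+/- sarcoma samples, 9 SMC3+/- marrow samples and 1 SMC3 wild-type sarcoma. The labels used here gave neither the age of the mice nor the driver of the mutant alleles.

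Monocytes arise in marrow from progenitors shared with neutrophils. Classical monocytes carry high Ly6C, the product of Ly6c2, and the receptor CCR2; non-classical monocytes carry little Ly6C and much of the fractalkine receptor CX3CR1. Monocytes that enter tissue can become macrophages, which keep lysosomal CD68 and gain genes such as the C1q chains. Myeloid leukaemia cells with monocytic features can carry the same markers, so in bulk RNA a level does not say which cell made the transcript. Fewer cells of a type and less RNA per cell likewise cannot be told apart in bulk samples.

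Library totals ran from 12395041 to 39197660 counts in marrow, from 12072482 to 33605464 in the SMC3+/- sarcomas and reached 9797201 in mouse 841. Marrow libraries 737, 779 and 782 stood apart: their median log2 deviation over 1130 genes with transcripts above 6 kb lay between -2.14 and -1.93, against -0.66 to 0.54 in the other 13 libraries. Smc3, the gene named in the genotype, was read at 3.58 to 8.63 CPM (counts-per-million, on scaled library totals) in these 3 marrows and at 142 to 219 CPM in the other 6. Its level in the wild-type sarcoma, 138 CPM, fell within the 65.9 to 198 CPM spanned by the SMC3+/- sarcomas. The sarcoma labelled 1268_1270 held little leukocyte RNA, with a summed level of 12 pan-leukocyte genes of 779 CPM against 5151 to 10133 CPM in the other 3 SMC3+/- sarcomas and 7976 to 15455 CPM in marrow.

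Lyz2 and Ly6c2, the most abundant markers, each have a close copy in the genome, which bears on how reads are assigned. Lyz2 encodes the lysozyme of myeloid cells and Lyz1 that of Paneth cells in the gut. Their coding sequences are 447 bases long and differ at 22 bases (95.08% identity), with a longest shared run of 118 bases. Ly6c2 and its neighbour Ly6c1, which endothelial cells also express, have coding sequences of 396 bases that differ at 9 bases (97.73% identity), with a longest shared run of 188 bases. The 120-base stretch of each pair that holds the most differences is shown because a read that lies wholly within a shared run cannot be assigned to 1 copy. Sequences come from GENCODE vM21 transcripts on GRCm38, read 5′ to 3′ along the coding strand, and capitals mark bases that differ between the copies. Bases 37 to 156 of the lysozyme coding sequence, counted from the A of the start codon, hold 14 of the differences and span exons 1 to 2. Both lysozyme genes are on the minus strand of chromosome 10, Lyz2 at chr10:117277331-117282321 and Lyz1 at chr10:117287797-117292868.
Lyz2: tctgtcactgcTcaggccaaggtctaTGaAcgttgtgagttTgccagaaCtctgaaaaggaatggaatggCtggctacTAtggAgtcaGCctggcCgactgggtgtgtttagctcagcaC
Lyz1: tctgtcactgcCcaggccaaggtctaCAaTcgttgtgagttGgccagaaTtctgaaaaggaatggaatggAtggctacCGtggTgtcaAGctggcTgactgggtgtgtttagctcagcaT
Bases 1 to 120 of the Ly6C coding sequence hold 6 of the differences and span exons 2 to 3. Both Ly6C genes are on the minus strand of chromosome 15, Ly6c2 at chr15:75108158-75111970 and Ly6c1 at chr15:75044018-75048830.
Ly6c2: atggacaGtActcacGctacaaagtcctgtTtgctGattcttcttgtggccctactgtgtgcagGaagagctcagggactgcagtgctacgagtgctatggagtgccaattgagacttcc
Ly6c1: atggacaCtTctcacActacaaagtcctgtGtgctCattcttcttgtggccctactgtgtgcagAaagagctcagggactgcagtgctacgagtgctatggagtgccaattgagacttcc

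Across the 16 libraries Lyz1 took 0.146% to 1.33% of the counts given to the lysozyme pair. Ly6c1 took 0.282% to 4.99% of the counts given to the Ly6C pair in 15 libraries, and 61.7% in the sarcoma labelled 1268_1270. How the authors' counting treated reads that match both copies is not given in the sources used here, so the levels of these 2 markers are uncertain. Summed over 8 endothelial genes, sarcoma 1268_1270 had 501 CPM, and the SMC3+/- sarcomas 1267, 2721 and 948 had 71.7, 88.1 and 177 CPM. The wild-type sarcoma had 306 CPM, and marrow ran from 10.8 to 148 CPM. The part of endothelial RNA in the Ly6c1 share was not tested.

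None of the 7 markers passed an adjusted p of 0.05 between SMC3+/- sarcoma and marrow in edgeR's quasi-likelihood test with Benjamini-Hochberg adjustment over 14730 genes. Over all genes tested, 4.49% were called higher in sarcoma and 0.0543% lower (662 and 8 genes). Ms4a7 was higher in every SMC3+/- sarcoma than in every marrow. Cx3cr1 was lower on average, and it and the other 5 overlapped between the groups. At an unadjusted p under 0.05 there were 2 markers, Cx3cr1 and Ms4a7, where 13.8% of all genes reached that level. DESeq2 called Ms4a7 higher and Cx3cr1 lower, among 3.03% and 0.563% of all genes. The median log2 fold change of the 7 markers was 0.06, against 0.07 over all genes tested.

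**Figure D1:**
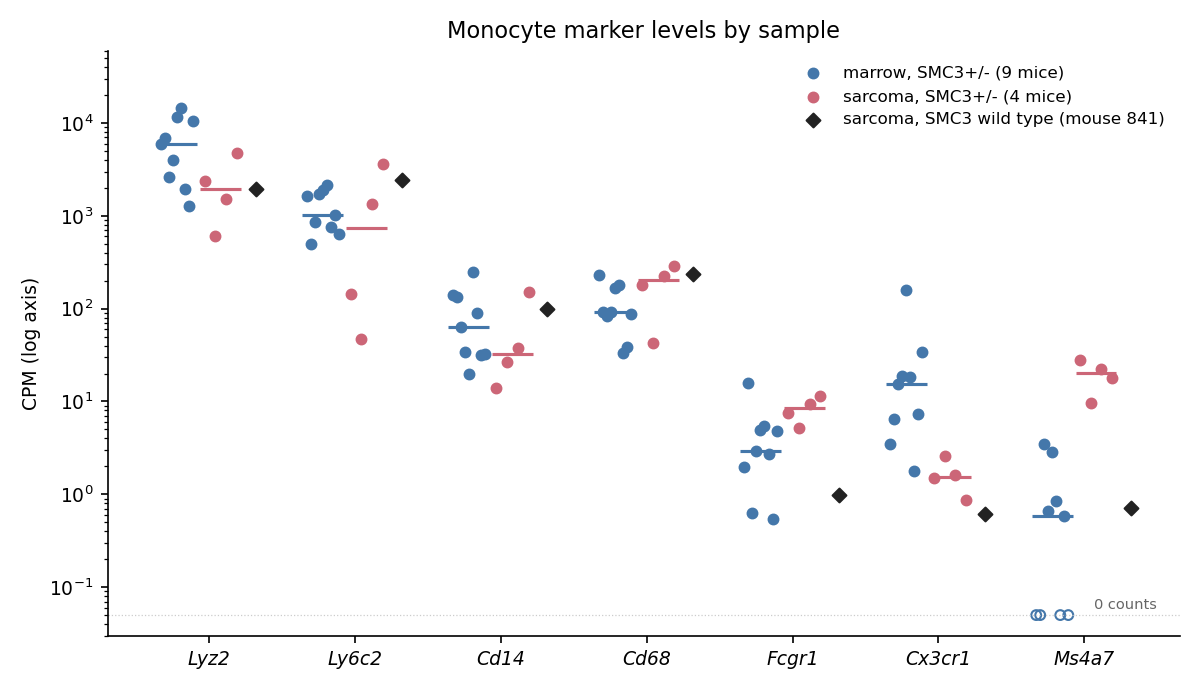
Level of each marker in CPM (log axis) in every mouse-and-tissue sample: 9 SMC3+/- marrows, 4 SMC3+/- sarcomas and the SMC3 wild-type sarcoma of mouse 841, with horizontal lines at group medians and open circles at the dotted line for samples with 0 counts. Ms4a7 is the marker whose 4 SMC3+/- sarcomas all lie above all 9 marrows.

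Ms4a7 encodes a membrane-spanning protein of the MS4A family that is found on macrophages. Its level was 9.52 CPM in sarcoma 1268_1270, 17.9 in 948, 22.3 in 2721 and 28.2 in 1267. In marrow it had a median of 0.583 CPM and a highest value of 3.45 CPM, in mouse 2721. The SMC3 wild-type sarcoma of mouse 841, not part of the test, had 0.707 CPM, within the marrow range. Marrows 782, 949, 1103 and 1267 had 0 counts, where 3 counts would have been 0.101 to 0.223 CPM. The groups did not overlap, which was so for 4.11% of all genes in the same direction and for 0.285% in the other. The log2 fold change was 4.38 ± 1.28 (SE, edgeR, adjusted p = 0.0724, 4 against 9 mice), and over 28 other settings it ran from 4.07 to 6.37 with 6 calls (adjusted p 0.000796 to 0.801). Among those 6 were limma-voom, which called 6.05% of all genes higher and 0.143% lower, and the test without a count filter, which called 6.42% higher and 0.0616% lower. One of these calls came from leaving out marrow 2721, with a log2 fold change of 5.05 and an adjusted p of 0.0495. With mouse as a block the value was 5.50 with an adjusted p of 0.801.

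Of 12 tissue macrophage genes tested, 5 were called higher in sarcoma and 0 lower, with a median log2 fold change of 3.31. The called genes were the complement chains C1qc (4.55, adjusted p = 0.00683), C1qa (4.76, adjusted p = 0.00719) and C1qb (4.43, adjusted p = 0.0144), the folate receptor gene Folr2 (6.28, adjusted p = 0.00992) and the mannose receptor gene Mrc1 (3.21, edgeR adjusted p = 0.0267). Without sarcoma 1268_1270 the calls fell to 2, C1qa and C1qc, and C1qb, Folr2 and Mrc1 had adjusted p-values of 0.0524, 0.0933 and 0.131 (edgeR). Over all genes, those called higher fell from 662 of 14730 tested to 170 of 15045. DESeq2 called 5, where it called 3.03% of all genes higher. The fit with mouse as a block called 4, where it called 107 of 14730 genes higher. Of the 12 genes, 11 had a log2 fold change above 0, and Emr1 was at -0.24 (edgeR adjusted p = 0.978). The 12-gene sum was 491 to 926 CPM in SMC3+/- sarcomas, 37.3 to 367 CPM in marrow and 270 CPM in the wild-type sarcoma. Emr1 weighed on the marrow sum, with a mean of 120 CPM there and 102 CPM in sarcoma. C1qa, C1qb and C1qc had marrow means of 6.22, 6.95 and 6.87 CPM. Genes of other tissue cells were also called higher: 7 of 8 fibroblast genes, with a sum of 601 to 11212 CPM in sarcoma and 0.520 to 38.4 CPM in marrow. So were 5 of 7 skeletal muscle genes, whose sum overlapped between the groups. It was 7.28 CPM in sarcoma 1267, 156 in 1268_1270, 216 in 2721 and 1600 in 948, against 11.8 to 77.2 CPM in marrow. The part of macrophage and other tissue RNA in the Ms4a7 level was not tested.

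Cx3cr1 encodes the receptor for fractalkine. It was read at 0.864 CPM in sarcoma 948, 1.48 in 1267, 1.60 in 2721 and 2.56 in 1268_1270. Marrow ranged from 1.78 CPM in mouse 782 through a median of 15.5 to 159 CPM in mouse 737. Only marrow 782 fell among the sarcoma values; the other 8 marrows had at least 3.45 CPM. The log2 fold change was -4.18 ± 1.19 (SE, edgeR, adjusted p = 0.065), and the gene ranked 759 of all tested by p.

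The single highest marrow weighed on the size of the Cx3cr1 difference. Without marrow 737 the log2 fold change was -3.02 with an adjusted p of 0.0546 (edgeR). Without marrows 737, 779 and 782, an alternative chosen after seeing the data, it was -3.19 with an adjusted p of 0.0466, and without marrow 782 alone the adjusted p was 0.0408. Of 28 other settings 7 called Cx3cr1 lower, one of them the test with the wild-type sarcoma added, in which 3.89% of all genes were called higher and 0.14% lower, and the adjusted p ran from 0.000482 with DESeq2 to 0.257 with limma-voom. The transcript of Cx3cr1, 4493 bases, is the longest of the 7, and the 3 marrows low in long transcripts held both its lowest and its highest marrow value. Its ligand gene Cx3cl1 was read at 0.925 to 3.67 CPM in sarcoma and 0 to 1.96 CPM in marrow, with a log2 fold change of 2.40 (edgeR adjusted p = 0.542; 4.02 with limma-voom, which called it).

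**Figure D2:**
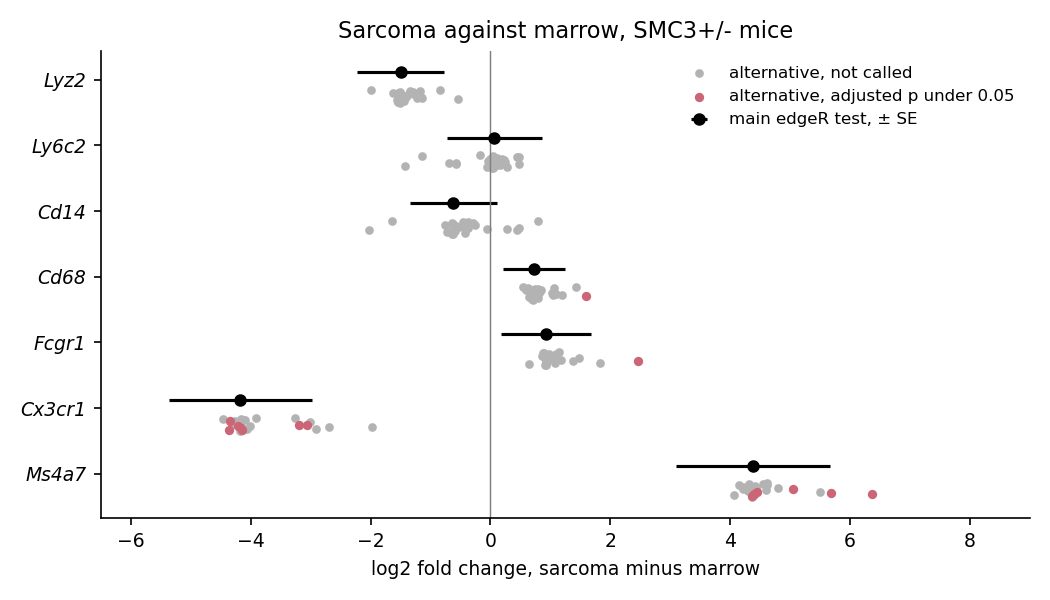
log2 fold change of each marker, SMC3+/- sarcoma minus marrow: black points and bars are the edgeR estimate ± SE, and the smaller points below are the 28 other settings, red where the adjusted p is under 0.05. No black estimate is called; Ms4a7 is above 0 and Cx3cr1 below 0 in all 28 other settings, and Ly6c2 and Cd14 fall on both sides of 0.

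Lyz2 was the most abundant marker in marrow. Sarcoma levels were 607 CPM in 1268_1270, 1505 in 2721, 2394 in 1267 and 4740 in 948, and marrow ran from 1282 CPM (919) through a median of 5891 to 14328 CPM (779). The sarcoma range overlapped the lower marrows, and 5 of the 9 marrows lay above all sarcomas. The log2 fold change of Lyz2 was -1.50 ± 0.73 (SE, edgeR adjusted p = 0.396) and stayed below 0 in all 28 other settings, from -2.00 to -0.55. Neutrophils also make lysozyme: the 13 neutrophil genes tested had 0 calls and a median of -0.83. Their sum was 660 CPM in sarcoma 1268_1270, 38061 to 44815 CPM in the other 3 and 13282 to 105578 CPM in marrow. The list includes Elane, Mpo, Prtn3 and Ctsg, with marrow means of 5864, 6560, 2434 and 2856 CPM. Their SMC3+/- sarcoma means were 6940, 3452, 2097 and 2582 CPM. Which cells made these transcripts, neutrophils or leukaemic cells, was not tested. Lyz1 had a log2 fold change of 0.26 (edgeR adjusted p = 0.972).

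Ly6c2 varied most among the sarcomas. It was read at 47.3 CPM in 1268_1270, 144 in 1267, 1352 in 2721 and 3640 in 948, a 76.9-fold range, while the 9 marrows spanned 501 to 2137 CPM (median 1020), a 4.27-fold range. Sarcomas lay on both sides of all marrows, 2 below the lowest and 1 above the highest. The log2 fold change was 0.06 ± 0.79 (SE, edgeR adjusted p = 0.996), and 9 of 28 other settings put it at or below 0. Without sarcoma 948 it was -1.15 (edgeR adjusted p = 0.668), so its sign changed without that mouse. Ly6c1 was 7.57 CPM in sarcoma 1267, 23.0 in 2721, 45.5 in 948 and 76.3 in 1268_1270 against 1.46 to 27.1 CPM in marrow, with a log2 fold change of 1.67 ± 0.68 (SE, edgeR adjusted p = 0.254).

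Cd14 encodes the co-receptor that hands bacterial lipopolysaccharide (LPS) to TLR4. Its sarcoma levels were 13.9 CPM in 1267, 26.9 in 1268_1270, 37.6 in 2721 and 151 in 948, and its marrow levels ran from 19.7 CPM (737) through a median of 64.1 to 246 CPM (779). The groups overlapped, with a log2 fold change of -0.62 ± 0.73 (SE, edgeR adjusted p = 0.878). Cd14 changed sign when tumour 2 alone stood for mouse 948 (0.27, an alternative chosen after seeing the data). It also did so without the 4 libraries lowest in long transcripts (0.47), a setting that likewise leaves tumour 2 alone for mouse 948. Without marrows 737, 779 and 782 only, also chosen after seeing the data, Cd14 was at -0.38. Without sarcoma 948 it was -1.64. With the edgeR test scaled to the 12 pan-leukocyte genes and all libraries kept, Cd14 was at 0.44, where the median of all genes was 1.83. The cause of these changes was not tested. Of 9 other genes of the LPS receptor complex and its adaptors, 0 were called, with a median log2 fold change of -0.34; the smallest adjusted p was that of Myd88, the adaptor of most Toll-like receptors (-0.92, edgeR adjusted p = 0.144), which DESeq2 called lower (-0.95).

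Fcgr1 encodes CD64, the high-affinity receptor for IgG. It was low in both tissues, at 5.16 CPM in sarcoma 1268_1270, 7.57 in 1267, 9.43 in 2721 and 11.4 in 948. Marrow ran from 0.540 CPM (919) through a median of 2.95 to 15.7 CPM (1267). Apart from marrows 1267 and 779, the latter at 5.50 CPM, all marrows lay below all SMC3+/- sarcomas. The log2 fold change was 0.93 ± 0.75 (SE, edgeR adjusted p = 0.744). The other Fc gamma receptor genes, Fcgr2b, Fcgr3 and Fcgr4, the signalling chain gene Fcer1g and the neonatal receptor gene Fcgrt had 0 calls and a median of 0.46, with Fcgrt at 1.39 (edgeR adjusted p = 0.635).

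Cd68 encodes a lysosomal membrane protein of monocytes and macrophages. Its level was 42.9 CPM in sarcoma 1268_1270, 180 in 1267, 227 in 2721 and 290 in 948. Marrow ran from 33.5 CPM (782) through a median of 91.2 to 230 CPM (1103), and the groups overlapped. The log2 fold change was 0.73 ± 0.52 (SE, edgeR adjusted p = 0.69).

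Levels were also read against leukocyte RNA in the same sample, as the log2 level of a marker minus the mean log2 level of the 12 pan-leukocyte genes. On that scale Cd68 lay between -1.09 and -0.31 in the SMC3+/- sarcomas and between -3.52 and -1.22 in marrow, so the groups did not overlap. Ms4a7 lay between -5.10 and -2.47 in sarcoma and at -7.32 or lower in marrow. These were the 2 of 7 markers with separate groups, where 5.2% of all genes tested were separate and higher in sarcoma on this scale and 0.0136% separate and lower. Scaling the edgeR test to these genes called Ms4a7 (5.68, adjusted p = 0.00569), Cd68 (1.60, adjusted p = 0.0296) and Fcgr1 (2.46, adjusted p = 0.0321) higher. That scaling also moved the median log2 fold change of all genes from 0.07 to 1.83 and called 45.5% of them higher and 0.0611% lower, so of these only Ms4a7 and Fcgr1 exceeded the shift. Cd14 took a log2 fold change of 0.44 under it, below the shifted median.

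Ratios of 2 markers within a sample do not depend on the scaling of libraries. Of the 21 pairs, 6 had separate groups, against 5.14% of the 108479085 pairs of all genes tested. All but Lyz2 to Cd68 and Lyz2 to Fcgr1 included Ms4a7, whose own groups did not overlap. The log2 ratio of Lyz2 to Cd68 was 2.73 to 4.03 in the SMC3+/- sarcomas and 4.68 to 6.88 in marrow. The log2 ratio of Lyz2 to Fcgr1 was 6.86 to 8.69 in sarcoma and 8.77 to 11.83 in marrow. Cx3cr1 to Ms4a7 ran from -4.26 to -1.87 in sarcoma and from 2.15 to 8.81 in marrow, where samples with 0 Ms4a7 counts take their value from a prior count of 2. Thus Ms4a7 exceeded Cx3cr1 in all 4 sarcomas and in 0 of 9 marrows, per kilobase of transcript as well. These pairs are described after their values were seen and were given no test.

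**Figure D3:**
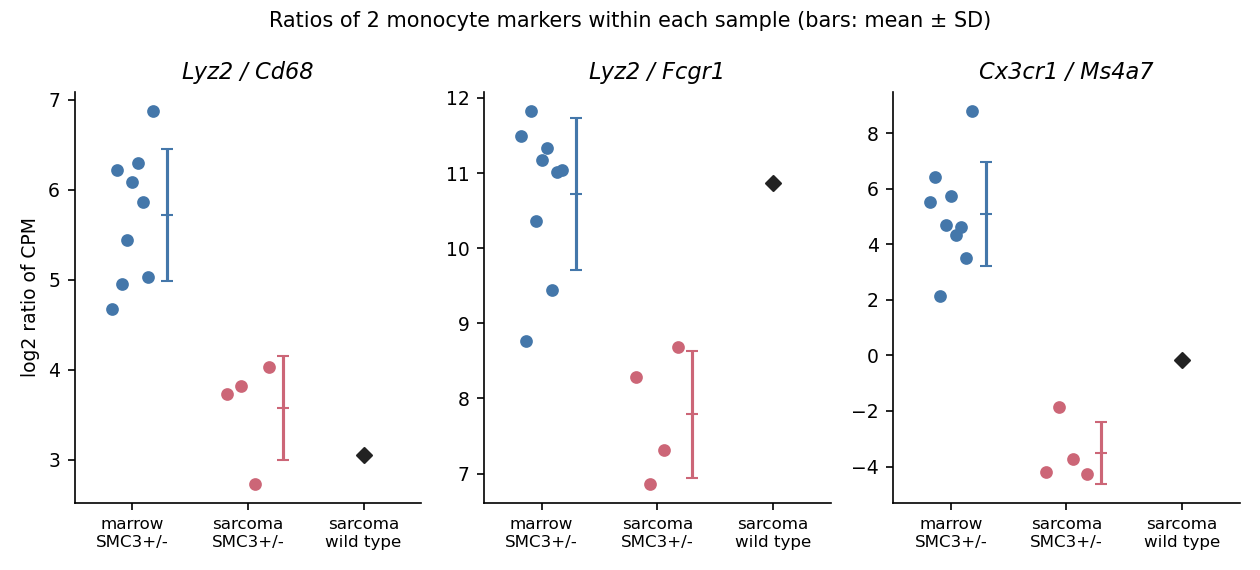
log2 ratio of CPM between 2 markers within each sample, for SMC3+/- marrow (9 mice), SMC3+/- sarcoma (4 mice) and the SMC3 wild-type sarcoma of mouse 841; points are samples and bars the mean ± SD. In each panel all 4 SMC3+/- sarcomas lie below all 9 marrows, and the wild-type sarcoma lies among the sarcomas for Lyz2 to Cd68 (3.05), among the marrows for Lyz2 to Fcgr1 (10.87) and between the groups for Cx3cr1 to Ms4a7 (-0.17).

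The order of the markers was read as CPM per kilobase of the longest coding transcript. By median, marrow ran from Lyz2 (4476) and Ly6c2 (1241) through Cd68 (74.1), Cd14 (39.1), Cx3cr1 (3.46) and Fcgr1 (1.14) to Ms4a7 (0.370 CPM per kb). Between neighbours in this order only the ranges of Ly6c2 and Cd68 were separate; the other 5 neighbouring pairs overlapped. In the SMC3+/- sarcomas the first 4 kept their places (Lyz2 1482, Ly6c2 910, Cd68 166, Cd14 19.6), followed by Ms4a7 (12.8), Fcgr1 (3.28) and Cx3cr1 (0.343 CPM per kb). There the ranges of Ms4a7 and Fcgr1, and of Fcgr1 and Cx3cr1, were separate. Lyz2 exceeded Ly6c2 per kilobase in 8 of 9 marrows and in 2 of 4 sarcomas. Spread within a tissue was widest in marrow for Cx3cr1 (89.3-fold) among the 6 markers detected in every marrow, and narrowest among sarcomas for Fcgr1 (2.21-fold), Cx3cr1 (2.96-fold) and Ms4a7 (2.96-fold).

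Mice 1267 and 2721 gave both tissues, and 2 markers, Fcgr1 and Ly6c2, differed in opposite directions between them. Cx3cr1 was lower in the sarcoma of both mice (log2 difference -2.06 and -3.22), Lyz2 likewise (-1.52 and -0.78), and Cd68 was higher in both (0.97 and 1.44). Ms4a7 was at least 161.5-fold higher in the sarcoma of mouse 1267, whose marrow had 0 counts (bound at 3 counts in that marrow), and was 22.3 against 3.45 CPM in mouse 2721 (2.67). Fcgr1 was lower in the sarcoma of mouse 1267 (-1.04) and higher in that of mouse 2721 (3.74). Ly6c2 also differed in sign (-1.80 and 0.66), and Cd14 was lower in both (-3.27 and -0.77). With 2 mice these are values without a test.

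In mouse 948, tumour 1 exceeded tumour 2 in Ly6c2 (5587 against 1387 CPM) and Ms4a7 (26.7 against 7.99 CPM). Tumour 2 exceeded tumour 1 in Cd14 (332 against 45.3 CPM) and Cd68 (447 against 217 CPM), and Lyz2 and Fcgr1 differed by 0.09 and 0.04 on the log2 scale. The median absolute log2 difference between these 2 libraries was 1.17 over all genes. The Cd14 difference exceeded that of 88.4% of genes, Ly6c2 74.2%, Ms4a7 67.3% and Cd68 45.2%. The libraries also differed in long transcripts, with deviations of -0.66 and 0.40. The part of that in the marker differences was not tested. In mouse 2721 the median absolute difference over all genes was 0.20. Ms4a7 differed by 1.20 there (30.6 against 13.3 CPM), more than 92.3% of genes, and Cd68 by 0.66 (276 against 174 CPM), while Ly6c2 differed by 0.02.

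**Figure D4:**
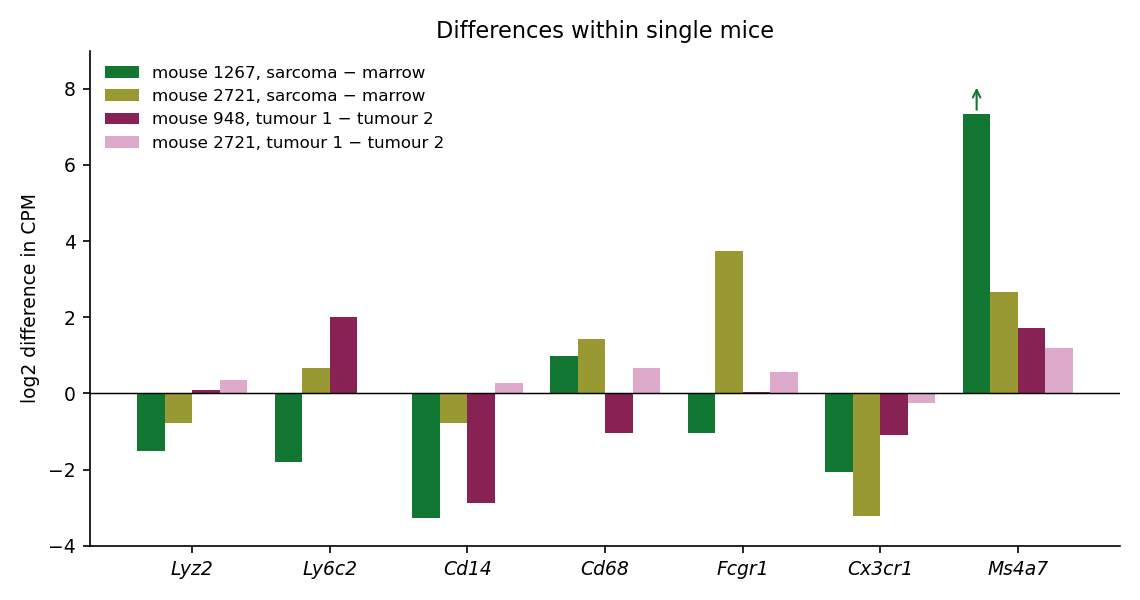
log2 difference in CPM of each marker within single mice: sarcoma minus marrow in mice 1267 and 2721, and tumour 1 minus tumour 2 in mice 948 and 2721. The arrow on Ms4a7 of mouse 1267 marks a lower bound (7.34), since its marrow had 0 counts; the Cd14 and Ly6c2 bars of mouse 948 (-2.87 and 2.01) exceed those of the 2 tumours of mouse 2721 (0.26 and 0.02).

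In the single SMC3 wild-type sarcoma, mouse 841, 4 markers lay inside the range of the 4 SMC3+/- sarcomas and 3 below it. Inside were Lyz2 (1967 CPM), Ly6c2 (2414), Cd14 (99.9) and Cd68 (237). Fcgr1 was read at 0.972 CPM (11 counts), Ms4a7 at 0.707 CPM (8 counts) and Cx3cr1 at 0.618 CPM (7 counts). Of all genes tested, 17.8% lay below and 11.6% above that range. With 1 library, genotype and mouse cannot be told apart, and no test was made.

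Other genes of the monocyte programme were read from the same fit. Of 14 classical monocyte genes 0 were called, with a median log2 fold change of -0.83; Ccr2, the chemokine receptor used to leave marrow, was at -2.45 (edgeR adjusted p = 0.219). Of 10 non-classical monocyte genes, 1 was called higher and 0 lower, with a median of -0.82. That gene was Cd36, the scavenger receptor and fatty acid transporter, at 71.8 to 5003 CPM in sarcoma and 0 to 49.9 CPM in marrow (6.71, edgeR adjusted p = 0.00794). Without sarcoma 1268_1270, the highest, Cd36 was at 2.96 (edgeR adjusted p = 0.257), and with mouse as a block at 2.10 (adjusted p = 0.826). Adipocytes also express Cd36: of 7 adipocyte genes tested 6 were called higher, and their sum was 48604 CPM in sarcoma 1268_1270, 386 to 818 CPM in the other 3 and 16.6 to 212 CPM in marrow. Without sarcoma 1268_1270, 4 of 7 were called, where 170 of all 15045 genes tested were called higher. DESeq2 gave no adjusted p for the 6 genes or for Cd36. The part of fat in the Cd36 level was not tested.

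Of 10 monocyte transcription factors, 1 was called higher and 0 lower. It was Maf, a macrophage factor, at 12.2 CPM in sarcoma 1267, 28.6 in 948, 38.9 in 2721 and 76.1 in 1268_1270 against 0.719 to 13.3 CPM in marrow (log2 fold change 3.01, edgeR adjusted p = 0.0208). Without sarcoma 1268_1270 Maf was at 2.47 (edgeR adjusted p = 0.19), and with mouse as a block at 1.03 (adjusted p = 1). Irf8, which commits progenitors to the monocyte and dendritic lineages, was at -2.78 (edgeR adjusted p = 0.0777). DESeq2 (-2.79, adjusted p = 0.00368), limma-voom (-2.42, adjusted p = 0.0473) and 3 other settings called Irf8 lower. Irf5 was at -2.14 (edgeR adjusted p = 0.191). Spi1, the gene of PU.1, was at -0.56 (edgeR adjusted p = 0.809). Of the 3 genes of the CSF1 receptor axis 0 were called: the receptor gene Csf1r was at -0.50 (edgeR adjusted p = 0.876), and the ligand genes Csf1 at 1.90 (adjusted p = 0.42) and Il34 at 5.41 (adjusted p = 0.0961), which limma-voom called (4.62).

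Of the 10 other MS4A genes tested, 1 was called higher and 0 lower, and the median log2 fold change was -1.88. Ms4a4d was the gene called (6.18, edgeR adjusted p = 0.0124), at 2.56 to 25.9 CPM in sarcoma and at most 0.634 CPM in marrow; without sarcoma 1268_1270 it was at 4.66 (edgeR adjusted p = 0.186). Ms4a4b (-2.81, edgeR adjusted p = 0.104), Ms4a4c (-4.16, adjusted p = 0.109) and Ms4a6c (-2.70, adjusted p = 0.151) were on the other side of 0 and did not pass. DESeq2 called these 3 lower (Ms4a4b -2.82, Ms4a4c -3.02, Ms4a6c -2.74) and 0 family members higher, giving no adjusted p for Ms4a4d. The fit with mouse as a block called Ms4a4c and Ms4a6c lower (-4.41 and -2.66) and 0 higher. Of 8 dendritic cell genes 0 were called, with a median of -1.02.

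Likeness was measured as Pearson's r of log2 CPM, over genes whose log2 CPM averaged 3 or more, as a description without a test. The genes named were picked for the highest r, from 9122 genes over the 14 samples and 8891 over the 9 marrows. Over the 14 samples the genes most like Ms4a7 were C1qa (0.910), C1qc (0.902) and the syndecan gene Sdc3 (0.898); these samples include the difference between tissues. Most like Ly6c2 were Emb and Rgs18 (0.909 each) and Slfn2, and most like Lyz2 were Mkrn1 (0.936), Cdc42se1 (0.934) and Cmpk2 (0.928). Most like Cd68 were Wfdc17 (0.884), Cd200r1 and Casp1, and most like Cx3cr1 were Pygo2 (0.871) and Ifngr2 (0.861). Cd14 and Fcgr1 had weaker partners, at most 0.757 (Bst1) and 0.826 (Tmem29). Over the 9 marrows alone the closest genes were Casp1 for Lyz2 (0.973), Map3k10 for Cd68 (0.965), the class II chain gene H2-Aa for Cx3cr1 (0.960), Znhit1 for Fcgr1 (0.937), Zdhhc12 for Ly6c2 (0.919), Dclre1b for Ms4a7 (0.918) and Lipg for Cd14 (0.874). Ly6c1 was also among the 3 genes most like Ly6c2 over the marrows (0.894). The part of reads that match both copies in this value was not tested. For Ms4a7, marrows 782, 949, 1103 and 1267 had 0 counts and take the same value from the prior count. Cdc42se1 was among the 3 genes most like Lyz2 in both sets (0.943 over the marrows), but the 9 marrows are part of the 14 samples.

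Among themselves, the markers varied in how closely they went together across the 9 marrows. Lyz2 and Cd68 had r = 0.80 and rho = 0.75, and 0.63 and 0.60 over the 6 marrows not low in long transcripts. Lyz2 and Fcgr1 had r = 0.73 and rho = 0.82, and 0.81 and 0.89 over those 6. Lyz2 and Ly6c2 had r = 0.30 and rho = 0.35, and -0.30 and -0.49 over those 6. Cx3cr1 and Ms4a7 had r = 0.62 and rho = 0.54, Ly6c2 and Cd68 had 0.59 and 0.52, Lyz2 and Cx3cr1 had 0.57 for both, and Ly6c2 and Ms4a7 had 0.51 and 0.61. Over the 6 marrows these 4 pairs had r of 0.21 to 0.33. Marrows 782, 949, 1103 and 1267 had 0 Ms4a7 counts and take the same value from the prior count, so r and rho of Ms4a7 include ties. Cd14 and Cx3cr1 ran against each other (r = -0.58, rho = -0.57, and -0.73 and -0.66 over the 6). These describe 9 libraries that differ in depth and in their long transcripts, and no p is given.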

How the data were processed

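PolyA RNA was sequenced from 14 mouse-and-tissue samples (16 libraries). The authors deposited raw counts per gene symbol. STAR, DESeq, DESeq2 and the build mm9 are named in the submitters' processing notes; the sources used here do not give the annotation or strand setting. Counts of 1 mouse and tissue were summed and tested with edgeR 4.0.16 (TMM, filterByExpr, robust quasi-likelihood, two-sided, R 4.3.3) in 4 sarcoma against 9 marrow samples; all 7 markers passed the filter. The SE was computed from the fold change and F. CPM used TMM-scaled totals and log2 values a prior count of 2; mouse 841 was scaled with all 14 samples. Lengths came from GENCODE vM21 (GRCm38), matched by symbol. DESeq2 1.42.0, limma 3.58.1, other filters and scalings, and left-out libraries were alternatives. The fit was tested on simulated data: of 100 genes changed 4-fold it recovered 27, of 100 changed 16-fold 70, with 5 false calls over 14730 genes. Simulated samples were independent, and only genes with a mean above 1 CPM were changed. The simulation held no sarcoma low in leukocyte RNA, no marrows low in long transcripts and no shared mice. Its rates therefore need not hold for the real samples. Named genes were the 7 markers, both paralogs, up to 4 genes with the smallest adjusted p in each list, and the 3 most alike genes; the fifth macrophage gene called, the rest of the Fc gamma list and Spi1 were added after their values were seen. Markers and lists were chosen with earlier results of these data known. Samples of mice 1267 and 2721 are paired by animal (deviations from group means correlated at 0.29 and 0.21 over 14730 genes). The main test did not model this pairing.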

Additional observations from a re-analysis of the deposited data

How the results depend on the processing

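Depth limits Fcgr1, Cx3cr1 and Ms4a7, which rest on fewest counts (0 in 4 marrows for Ms4a7), and p-values reflect 4 against 9 mice under different handling. Leaving out sarcoma 1268_1270 cut the genes called higher from 662 to 170. Genes called higher numbered 6697 with pan-leukocyte scaling, 1355 without a count filter, 300 without the 4 libraries low in long transcripts (marrows 737, 779 and 782 and tumour 1 of mouse 948) and 62 without those and sarcoma 1268_1270. Genes called lower, 8 in the main test, numbered 83 with DESeq2, 21 with limma-voom, 13 without a filter, 17 with tumour libraries as units, 20 with the wild-type sarcoma added, 3 without the 4 libraries and 0 without those and sarcoma 1268_1270. With mouse as a replicate block, which rests on the pairing of mice 1267 and 2721, 107 genes were called higher and 23 lower, Ly6c2 took -0.57, and no marker was called. Alternatives chosen after seeing the data gave 327 genes higher (without marrows 737, 779 and 782) and 4 lower (tumour 2 alone for mouse 948). Leaving out 1 sample at a time gave 170 to 762 genes higher and 0 to 16 lower, and 0 to 1 markers in each direction: Ms4a7 higher without marrow 2721 and Cx3cr1 lower without marrow 782.

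Markers called higher numbered 3 with pan-leukocyte scaling and 1 (Ms4a7) with DESeq2, limma-voom, no filter or tumour libraries as units. The shares of all genes called higher were 45.5%, 3.03%, 6.05% and 6.42% in the first 4 of these settings. With tumour libraries as units, 574 of 13962 genes were called higher. That last setting counts the 2 tumours of mouse 948, and those of mouse 2721, as separate replicates although they share a mouse. Cx3cr1 was the 1 marker called lower with DESeq2, no filter, tumour libraries as units, the wild-type sarcoma added, the 4 libraries left out, or marrows 737, 779 and 782 left out. Of all genes, 0.563% were called lower with DESeq2, 0.0616% without a filter and 0.14% with the wild-type sarcoma added. The other settings in that list called 17 of 13962, 3 of 14711 and 8 of 14701 genes lower. Ly6c2 turned to -1.43 with limma-voom, -0.05 with library totals, -0.57 without the 4 libraries, -0.18 without those and sarcoma 1268_1270, -0.70 with tumour 2 alone for mouse 948, -0.04 without marrow 1267, 0 without marrow 782 and -1.15 without sarcoma 948. Cd14 turned to 0.44 with pan-leukocyte scaling, 0.47 without the 4 libraries low in long transcripts, 0.79 without those and sarcoma 1268_1270, and 0.27 with tumour 2 alone. The setting without the 4 libraries also leaves tumour 2 alone for mouse 948. Without marrows 737, 779 and 782 only, Ly6c2 was at 0.24 and Cd14 at -0.38. The cause of these changes was not tested. Lyz2, Fcgr1, Cx3cr1, Ms4a7 and Cd68 kept their direction in all 28 alternatives.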
